A study of Mus musculus with 122 samples.

Results

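CTCF is a zinc finger protein that binds a long DNA motif through its central fingers. It blocks the cohesin rings that extrude chromatin loops, so that bound sites mark loop anchors and domain boundaries, and at promoters it also acts as a transcription factor. In mouse embryonic stem (ES) cells it is abundant and required for growth, and it can be removed within hours when an auxin-inducible degron (AID) is fused to it. CTCF depletion alone was examined here in the LCL line, the RNA-seq of cells given auxin without induction of their transgene, set against untreated cells of the same line. The members are 4 of the 122 samples of the series, 2 libraries of LCL U (untreated) and 2 of LCL I (500 µM indole-3-acetic acid, IAA), chosen by their labels.

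By the study's methods, all cells were XY E14Tg2a mouse ES cells of 129/Ola background. They were grown without feeders in serum with leukemia inhibitory factor, the GSK3 inhibitor CHIR99021 and the MEK inhibitor PD0325901. U and I cells alike carried AID-eGFP on both Ctcf alleles, the plant auxin receptor subunit Tir1 at Rosa26, and at Tigre a doxycycline (Dox) inducible Flag-LCL-mRuby2 transgene, whose product joins the N and C termini of CTCFL to the zinc fingers of CTCF. LCL D cells were given 1 µg/ml Dox and LCL ID cells both agents, with 2 libraries each. The labels give 24 h of treatment and the treatment protocol 2 days, and which holds for these libraries is not known here. The line was selected as a clone and no source used here says that its replicates were separate cultures, so p-values measure the spread between libraries, which may be technical. IAA-treated cells without the AID tag were not analysed here, so loss of CTCF and other effects of IAA cannot be told apart.

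Reads recovered from the table numbered 26435259 and 48070042 in U and 48439704 and 35341627 in I. From 4.93% to 5.32% of a library lay in its 10 most abundant genes. Of 52459 genes listed, the 15274 with a mean normalised count of at least 10 over the 8 LCL libraries were tested. Calls required an adjusted p below 0.01 (limma, Benjamini-Hochberg) together with more than 2-fold change either way, a log2 fold change beyond 1 on the log2(normalised count + 1) scale. The 6 markers of ES cells (Nanog, Pou5f1, Sox2, Klf4, Esrrb and Zfp42) summed to 158657 and 164959 in U and to 131109 and 137758 in I, and none of them was called in either direction. Pou5f1, Sox2, Esrrb and Zfp42 had log2 fold changes of -0.36, -0.40, -0.52 and -0.58. Each of these passed the adjusted p threshold but not the fold threshold. Nanog (-0.003) and Klf4 (0.09) passed neither. The 7 fibroblast markers summed to 399 and 384 in U and to 445 and 391 in I. Lum was at 0 in all 4 libraries and Dcn had at most 0.81, while Col1a1 was at 178 and 187 in U and 164 and 132 in I, and Thy1 at 203 and 178 in U and 281 and 254 in I. Of these 7, 3 passed the filter and none of the 3 was called.

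More genes were lower than higher after IAA in the LCL line. Of the 15274 genes tested, 1464 were called (9.58%), 649 higher in I (4.25%) and 815 lower (5.34%). At an unadjusted p under 0.05, 7400 genes passed. The U and I libraries did not overlap for any of the 1464 called genes, nor for 70.4% of all genes tested, so the lack of overlap by itself separates few genes. edgeR on the recovered reads called 643 higher and 843 lower, and DESeq2 called 619 and 876.

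Ctcf itself (ENSMUSG00000005698, chromosome 8 from 105636568 to 105682922 in GRCm38, plus strand) is the target of the degron at the protein level. Its normalised count was 9309 and 7829 in U and 7792 and 7942 in I, so that the groups overlapped. I differed from U by -0.12 on the log2 scale (standard error 0.09, limma adjusted p = 0.325), and protein was not measured in these files. Ctcfl, the testis paralog whose ends the transgene carries, was at 36.5 and 27.2 in U and at 33.8 and 23.5 in I, against 384 and 416 in D and 1120 and 1225 in ID. The Ctcfl reads that came with Dox were thus not seen in the I libraries.

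**Figure D1:**
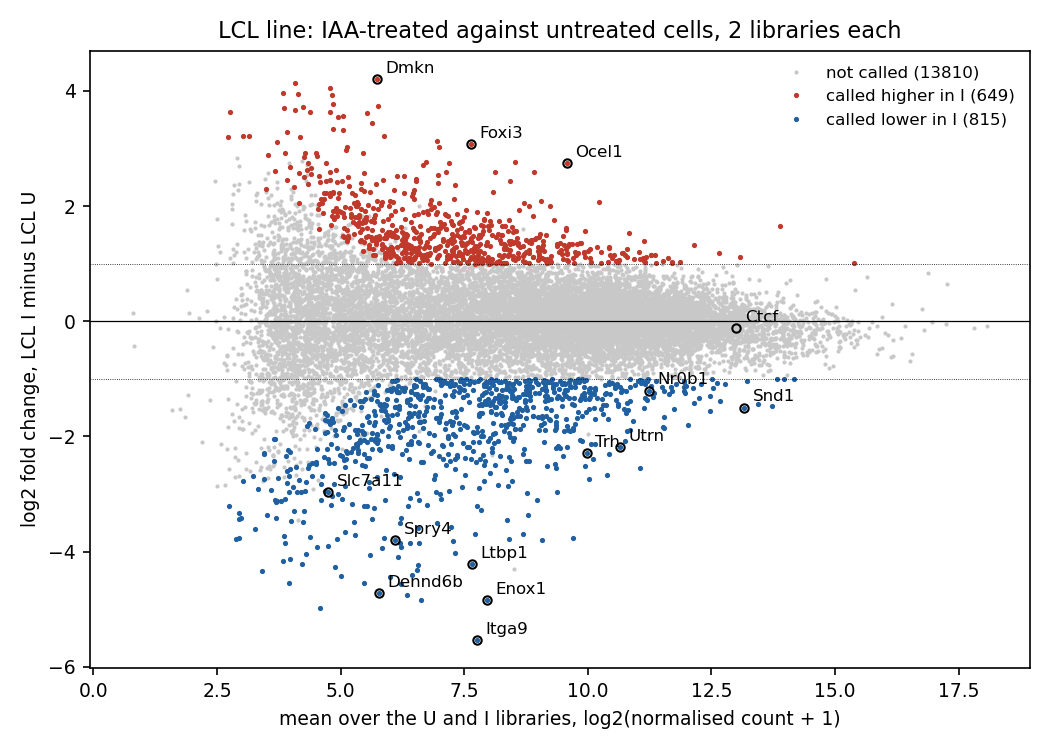
Each point is 1 of the 15274 genes tested in the LCL line, with the mean over the U and I libraries on the x axis, as log2(normalised count + 1), and the log2 fold change of I against U on the y axis. The 649 genes called higher are red, the 815 called lower are blue, dotted lines mark 1 and -1, and Ctcf lies near 0.

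Among called genes with a mean of at least 50 over the 4 libraries, the 12 lowest in I held at most 23.9 normalised counts in either I library, from between 78.7 and 521 in U. Itga9, an integrin subunit that binds extracellular matrix (chromosome 9 from 118606690 to 118901003, plus strand), was at 426 and 415 in U and at 8.15 and 8.09 in I. It fell by 5.53 on the log2 scale (standard error 0.29, limma adjusted p = 1.74e-11), and D alone also had less of it than U, with 123 and 150. Ltbp1, which binds latent TGF-beta in the matrix (chromosome 17 from 75005568 to 75392512, plus strand), was at 392.2 and 371.7 in U and at 16.9 and 22.7 in I (log2 fold change -4.22, standard error 0.27). Ryr2, a calcium release channel of the endoplasmic reticulum, was at 156 and 110 in U and at 9.32 and 4.85 in I, and Grid1, a delta type glutamate receptor subunit, was at 123 and 119 in U and at 6.41 and 3.24 in I.

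Cc2d2a, a protein of the base of the primary cilium, was at 174 and 135 in U and at 2.33 and 8.90 in I (log2 fold change -4.75). Rerg, a small GTPase of the Ras family, was at 217 and 162 in U and at 9.32 and 3.24 in I (log2 fold change -4.83). Dab1, the adaptor of reelin signalling, was at 185 and 167 in U and at 4.08 and 14.6 in I (log2 fold change -4.31). The others of the 12, chosen among genes whose U and I libraries do not overlap, were Enox1 (-4.84), Dennd6b (-4.72), Mob3b (-4.57), Ube2cbp (-4.41) and Fggy (-4.23 on the log2 scale). All 12 stayed called without any 1 U or I library. Fggy was the least even of them, at 23.9 and 2.43 in I, and its log2 fold change was -2.80 without replicate 2 of I.

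Among called genes with a mean of at least 50, the 12 highest in I had between 3.42 and 204 normalised counts in U and between 88.2 and 1349 in I. Dmkn, dermokine, secreted by differentiated epidermis (chromosome 7 from 30763756 to 30781063, plus strand), was at 4.56 and 4.32 in U and at 112 and 88.2 in I. It rose by 4.21 on the log2 scale (standard error 0.45, limma adjusted p = 3.13e-07). Foxi3, a forkhead factor of ectodermal appendages, was at 39.9 and 42 in U and at 291 and 424 in I (log2 fold change 3.07). Chit1, a chitinase, was at 20.5 and 28.4 in U and at 242 and 198 in I (log2 fold change 3.13).

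Ocel1, a gene with an occludin-like domain, was the most even of the larger gains, at 204 and 194 in U and 1349 and 1319 in I (log2 fold change 2.74, standard error 0.13). Ecm1, an extracellular matrix glycoprotein, was at 98.1 and 62.4 in U and at 471 and 486 in I (log2 fold change 2.6). Cyp1a1, the monooxygenase that the aryl hydrocarbon receptor induces, was at 87.8 and 101 in U and at 643 and 646 in I (log2 fold change 2.76, standard error 0.18). Receptors of peptide hormones were also among the 12, Sstr5 at 34.2 and 19.1 in U against 160 and 205 in I, and Uts2r at 34.2 and 21.0 against 248 and 203. Fbxl22 (3.74), Osgin1 (3.22), Vnn1 (2.72) and Serpinf1 (2.59 on the log2 scale) completed the 12, all of which stayed called without any 1 library.

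**Figure D2:**
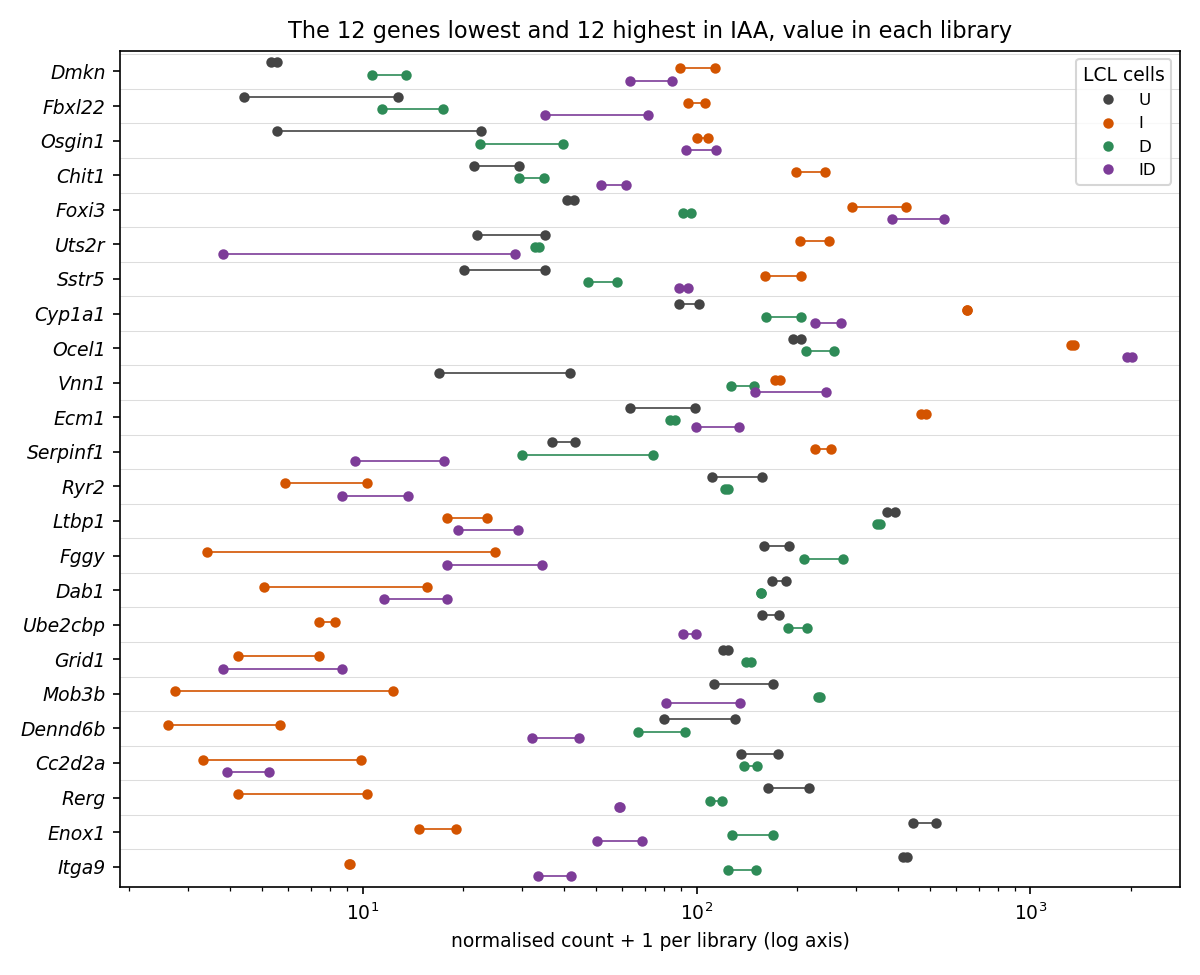
Normalised count + 1 in each library, on a log axis, of the 12 genes with the lowest and the 12 with the highest log2 fold change among called genes with a mean of at least 50, by gene on the y axis. Points are libraries, lines join the 2 libraries of a group, and U, I, D and ID are coloured as in the legend. Genes were chosen so that U and I do not overlap, and D lies between U and I for Itga9 and close to I for Vnn1.

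Genes called lower were more often long than genes called higher. Of 805 called lower, 216 spanned less than 30 kb, beside 9224 of the 15032 tested genes with a position on the chromosomes used. Genomic span, the distance between the annotated ends of a gene, could be assigned to 15055 tested genes (98.6%) from GENCODE vM21 on GRCm38. This split was chosen after the data were seen, and it is given as a description with no test. The median span was 130.9 kb for 805 genes called lower, 13.6 kb for 646 called higher and 20.6 kb over all genes tested. Of the genes called lower, 55.8% spanned more than 100 kb, against 2.32% of those called higher and 11.6% of all tested.

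By span, the share called lower was 2.54% of 4569 genes under 10 kb, 2.14% of 4676 genes from 10 to 30 kb and 3.45% of 4057 genes from 30 to 100 kb. It was 18.9% of 1458 genes from 100 to 300 kb and 58.6% of 295 genes over 300 kb. The share called higher ran the other way, from 5.67% under 10 kb to 0.960% from 100 to 300 kb and 1 of 295 genes over 300 kb. The median log2 fold change was 0.09 under 10 kb, 0.10 from 10 to 30 kb, -0.02 from 30 to 100 kb, -0.42 from 100 to 300 kb and -1.60 over 300 kb. Of the 295 longest genes, 268 had a log2 fold change under 0.

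Library by library, the median difference from the U mean was -1.56 and -1.45 in I over the genes above 300 kb, against 0.00 and 0.05 in the D libraries and -1.21 and -1.09 in ID. Genes over 100 kb held 8.39% and 7.84% of the reads in U and 6.48% and 6.43% in I. They held 7.421% and 7.495% in D, below both U libraries, and 5.39% and 5.87% in ID, below both I libraries. The share called lower over 300 kb was 55.3% of 161 genes in the lowest tercile of mean value, 63.6% of 99 in the middle tercile and 60.0% of 35 in the highest, with terciles set over all genes tested. It ranged from 46.8% without replicate 1 of U to 57.6% without replicate 1 of I, and was 60.3% both with edgeR and with DESeq2. No filter on low values gave 29.8% of 517 genes.

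Long genes of high expression were among those that fell. Utrn, utrophin, a giant protein of the cytoskeleton (chromosome 10 from 12382188 to 12869365, minus strand, 487.2 kb), was at 2873 and 2397 in U and at 532 and 627 in I. It fell by 2.18 on the log2 scale (standard error 0.11, limma adjusted p = 1.74e-11). Pola1, the catalytic subunit of DNA polymerase alpha (327.4 kb), was at 3262 and 2689 in U and at 867 and 910 in I (log2 fold change -1.74). Exoc4, a subunit of the exocyst (724.9 kb), was at 8636 and 8276 in U and at 2790 and 2957 in I (log2 fold change -1.56). Snd1, a nuclease of RNA metabolism (460.0 kb), was at 13365 and 13688 in U and at 4677 and 4893 in I (log2 fold change -1.50). These 4 genes and those of the next paragraph were chosen after their values were seen.

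Length did not mark every gene. Rere, a corepressor of 340.3 kb, was at 3041 and 2876 in U and at 3049 and 3001 in I (log2 fold change 0.03, standard error 0.12). Megf11, a transmembrane protein of neurons (323.6 kb), was the 1 gene over 300 kb called higher, at 111 and 101 in U and at 314 and 265 in I (log2 fold change 1.44). A span covers all annotated transcripts of a gene, and which transcripts the cells used was not tested.

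Each of the 3 other lines had the same pattern between its own I and U libraries, which share none with LCL. The share called lower over 300 kb was 65.1% of 341 genes in the CTCF line, 70.5% of 369 in the CTCFL line and 54% of 311 in the CLC line, and between 0.954% and 2.32% from 10 to 30 kb. Over all genes tested, 5.92% were called lower in the CTCF line, 5.88% in the CTCFL line and 6.1% in CLC. In LCL D against U, which shares the U libraries with I against U, 1.02% of the genes over 300 kb were called lower, beside 0.903% of all genes.

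**Figure D3:**
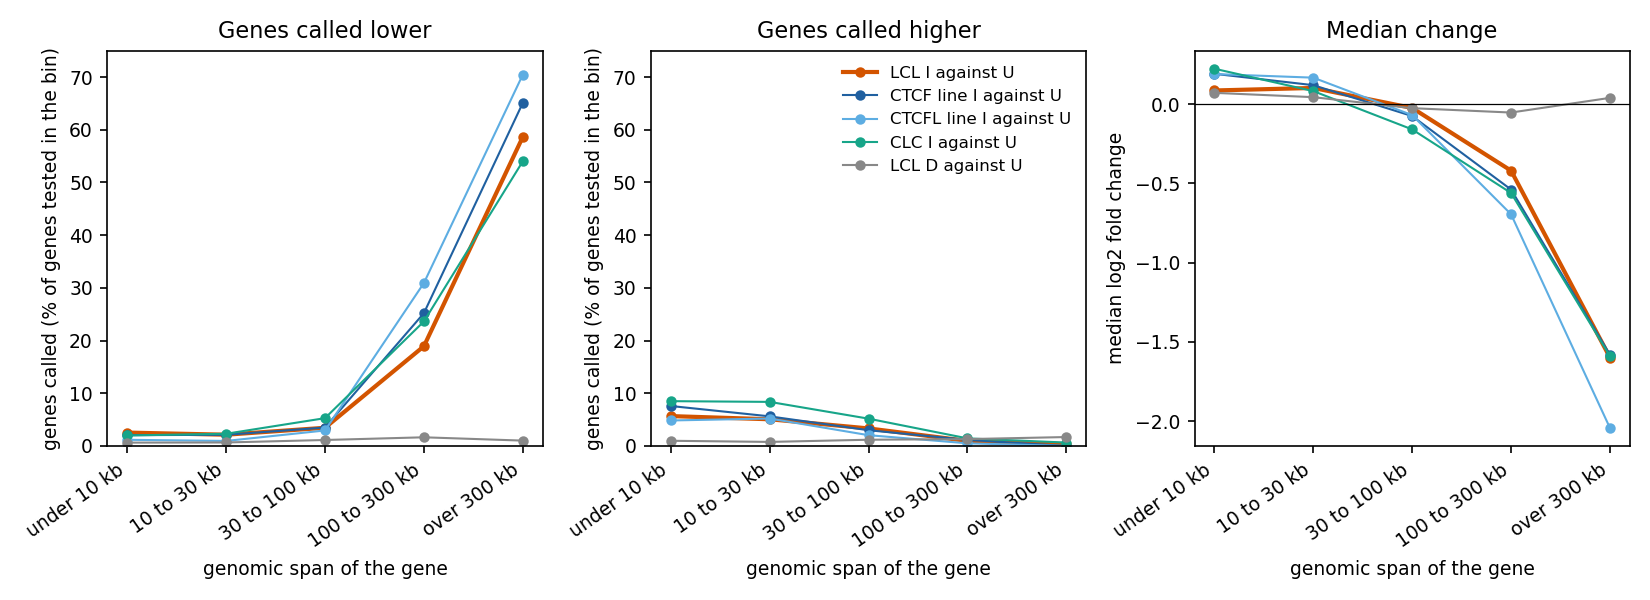
Genes called lower (left) and higher (middle), in percent of the genes tested in each bin of genomic span, and the median log2 fold change (right), for I against U in the LCL, CTCF, CTCFL and CLC lines and for D against U in LCL. The share called lower in LCL I climbs from 2.54% under 10 kb to 58.6% over 300 kb and the median reaches -1.60, while the D line stays flat.

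Called genes were also set against the CTCF sites near their start sites. Binding was not measured in LCL I, so 30317 FLAG sites of the CTCF line given IAA and Dox were used, where only transgenic CTCF carries the tag. A site lay within 3 kb of an annotated start of 342 of 805 genes called lower (42.5%, 95% Wilson interval 39.1 to 45.9), 241 of 640 called higher (37.7%, 34 to 41.5) and 31% of all 15032 tested genes with a position on the chromosomes used. The intervals cover counting error across genes only. Long genes have more annotated starts, with a median of 5 for genes called lower and 3 for those called higher. With the 5′ end of each gene alone, chosen after the data were seen, the shares were 28.3%, 27.5% and 20.2%.

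Promoter sites differed with span. Under 30 kb, 107 of 216 genes called lower had a site (49.5%, 95% Wilson interval 42.9 to 56.2), against 37.1% of 490 called higher and 28.8% of all 9224 tested. At the 5′ end alone the shares were 46.3%, 28.8% and 21.7%. From 30 to 100 kb, 52.1% of 140 genes called lower had a site within 3 kb, against 37.0% of 135 called higher and 33.7% of all 4056 tested. Over 100 kb, 36.1% of 449 genes called lower had a site, beside 9 of 15 called higher (60%, 35.7 to 80.2) and 36.4% of all 1752 tested. These bins were likewise chosen after the data were seen and are given with no test.

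Among short genes with a site, Snhg17, a noncoding host of small nucleolar RNAs (7.9 kb), was at 725 and 880 in U and at 71.6 and 82.5 in I (log2 fold change -3.36, standard error 0.16). Ttc5, a cofactor of p300 that also controls tubulin mRNA (20.1 kb), was at 818 and 976 in U and at 111 and 96.3 in I (log2 fold change -3.10). Dennd6b, a gene of the DENN family of Rab regulators (14.3 kb), was at 78.7 and 129 in U and at 4.66 and 1.62 in I. Mrpl23, a mitochondrial ribosomal protein (8.1 kb), was at 113 and 102 in U and at 9.90 and 4.85 in I (log2 fold change -3.76). Snhg17, Ttc5 and Mrpl23 were chosen after their values were seen.

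To show what lies at such promoters, the best match to a CTCF matrix of 20 positions, learned from the sites themselves, was read from GRCm38 within 50 bases of the site's summit. Capitals mark the 9 positions where the matrix holds at least 1 bit of information, and each line runs 5′ to 3′ on the strand of the match.
Rerg: tggtCCAgcAGgGGGCgccc
Mob3b: aaggCCAccAGgGGACtccg
Dennd6b: tcggCCAgtAGgTGGCtagt
Ltbp1: atggGCAgcAGgGGGCgccc
Mrpl23: caggCCGctAGaTGGCagtc
Ocel1: cctgCCGccAGgGGGCgcca

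The match of Rerg lies at chr6:137169768-137169787, minus strand, at -69 bases from a start of the gene, and that of Mob3b at chr4:35157497-35157516, minus strand, at -22 bases. That of Dennd6b lies at chr15:89196639-89196658, plus strand, at -152 bases, and that of Ltbp1 at chr17:75005017-75005036, minus strand, at -542 bases, where negative distances lie upstream. The match of Mrpl23 lies at chr7:142538098-142538117, plus strand, 2003 bases downstream of a start and within the gene. Ocel1, the only one of these 6 called higher, has its match at chr8:71371765-71371784, plus strand, 428 bases downstream of a start.

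A match above the 95th percentile of windows 1 kb away was held by 68.7% of the genes called lower that had a promoter site, 71.8% of those called higher and 65.7% of all tested genes with one. Sites of Cc2d2a, Ryr2, Cyp1a1, Snhg17 and Ttc5 held none, which says only that these letters were not found there.

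The gene lists set the changes against known programmes of ES cells. Over all genes tested, 4.25% were called higher, 5.34% lower and 9.58% either way, and 7809 of 15274 lay above 0, so a list with 1 or 2 calls may lie near these shares. Of 20 tested genes of naive pluripotency, 0 were called higher and 2 lower, with a list median of -0.29 beside 0.01 over all genes tested. Nanog, which holds cells in self-renewal, was at 40292 and 42828 in U and at 41037 and 41883 in I. Nr0b1, an orphan nuclear receptor of the network, fell from 3221 and 3519 in U to 1341 and 1588 in I (log2 fold change -1.21, adjusted p = 9.21e-09 from limma). Lin28a, which blocks let-7 maturation, fell from 1791 and 1902 to 808 and 743 (log2 fold change -1.25).

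Of 19 primed and early lineage genes, 2 were called higher, Krt18, a keratin of simple epithelia, at 251 and 233 in U and 545 and 505 in I, and Gata6. In this list none was called lower, 9 lay below 0 and the median was 0.01. Of 6 tested trophectoderm markers, 2 were called higher and none lower, with a median of 1.13, beside 4.25% of all genes called higher. Eomes was the 1 tested member below 0, at 149 and 175 in U and 123 and 121 in I (log2 fold change -0.40). Hand1, a bHLH factor of trophoblast and heart, rose from 26.2 and 29 to 92.0 and 125 (log2 fold change 1.92), and Krt7, a keratin of trophoblast, rose from 81.0 and 74.1 to 273 and 239 (log2 fold change 1.71). The defining factor Elf5 was at 6.84 and 3.7 in U and at 1.16 and 0 in I. Cdx2 was at 0 and 1.23 in U and at 1.75 and 17.8 in I. Of 9 tested primitive endoderm markers, 1 was called higher and 1 lower. Gata6, the primitive endoderm factor, was at 34.2 and 42.6 in U and at 85.0 and 96.3 in I, a call that ended without replicate 1 of U (adjusted p = 0.0389), replicate 1 of I (0.0137) or replicate 2 of I (0.0331). Lama1, a laminin chain of basement membrane, fell from 4803 and 4299 to 2051 and 2045.

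Of 7 tested neural markers, 1 was called lower, Map2, a microtubule protein of dendrites that spans 267.3 kb, from 92.4 and 89.5 to 13.4 and 12.9 (log2 fold change -2.70). Of a wider list of 10 fibroblast genes, 4 were tested and 1 was called lower, Acta2, smooth muscle actin, from 55.9 and 103 to 14 and 13.8. The lists of other cell types overlap with genes that ES cells express at low levels, and whether a few cells of another type took part was not tested. Of 17 genes of the two-cell stage, only 2 passed the filter on low values, and none of the 2 was called. Eif1a, a translation initiation factor of that list, was at 7242 and 6143 in U and at 5807 and 5757 in I.

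Genes that p53 activates were next. Of 19 tested, 3 were called higher and none lower, 18 had a log2 fold change above 0, and the median was 0.60, beside 4.25% of all genes called higher and 7809 of 15274 above 0. Bbc3 (PUMA), a BH3-only inducer of apoptosis, rose from 260 and 329 in U to 629 and 815 in I (log2 fold change 1.29). Phlda3, an inhibitor of Akt, rose from 1518 and 1582 to 3321 and 3540 (1.15), and Plk2, a polo-like kinase, rose from 1649 and 1448 to 3504 and 3330 (1.14 on the log2 scale). The 3 calls held without any 1 library.

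Among 31 genes of the cell cycle and replication, 3 were called higher and 1 lower, beside 9.58% of all genes called either way, with a median of -0.03. Cdkn1c (p57), an inhibitor of cyclin-dependent kinases and an imprinted gene, rose from 170 and 207 to 552 and 561 (log2 fold change 1.56). Cdkn2b (p15), another such inhibitor, rose from 41.1 and 48.2 to 131 and 98.7 (1.34). Ccnd2, a D cyclin, was at 52.5 and 48.8 in U and at 194 and 90.6 in I, and its call ended without replicate 1 of I (log2 fold change 0.83, adjusted p = 0.0607) or replicate 2 of U (adjusted p = 0.0105). Mki67, which marks dividing cells, was at 11523 and 7616 in U and at 4466 and 4335 in I (log2 fold change -1.09), and without replicate 1 of U it was at -0.79, under the fold threshold.

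Immediate early genes went both ways. Of 14 tested, 4 were called lower and 1 higher, beside 5.34% and 4.25% of all genes. Spry4 and Dusp6, feedback inhibitors of the ERK pathway, fell from 123 and 132 to 6.41 and 10.5 and from 415 and 458 to 79.8 and 111 (log2 fold changes -3.80 and -2.20). Egr1, a zinc finger factor that ERK induces, fell from 140 and 162 to 25.6 and 46.1 (log2 fold change -2.10). Its values were 448 and 436 in D and 131 and 143 in ID. Myc, a driver of growth, fell from 460 and 529 to 71.6 and 131 (log2 fold change -2.33, adjusted p = 1.42e-07 from limma), and it was at 144 and 130 in D. Jun, a subunit of AP-1, rose from 66.1 and 92.0 to 241 and 280 (log2 fold change 1.72). These 5 calls held without any 1 library. The study's methods give the MEK inhibitor, which acts on the same pathway, for all cells.

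Of 13 heat shock genes, Hspa1a and Hspa1b, near-identical copies of an inducible HSP70 whose reads may be split between them, were called higher, from 16.0 and 24.7 to 74.0 and 48.5 and from 188 and 204 to 397 and 476. The call of Hspa1a ended without replicate 1 of I (log2 fold change 1.25, adjusted p = 0.0326) or replicate 1 of U (adjusted p = 0.0260). Of 15 genes of the unfolded protein and amino acid stress responses, 2 were called lower. Chac1, which breaks down glutathione, fell from 265 and 396 to 66.4 and 84.9 (log2 fold change -2.09). Slc7a11, the cystine transporter, a gene of 551.1 kb, was at 46.8 and 43.2 in U and at 12.2 and 1.62 in I, a call that ended without replicate 2 of I (log2 fold change -1.80, adjusted p = 0.0237) or replicate 1 of U (adjusted p = 0.0158). None of the 3 Gadd45 genes was called. Gadd45a was at 453 and 449 in U and at 316 and 328 in I (log2 fold change -0.49), and Gadd45g was at 73.0 and 65.5 in U and at 64.6 and 42.1 in I. Of 8 tested targets of the aryl hydrocarbon receptor, Cyp1a1 was the 1 called, and the median was 0.43.

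**Figure D4:**
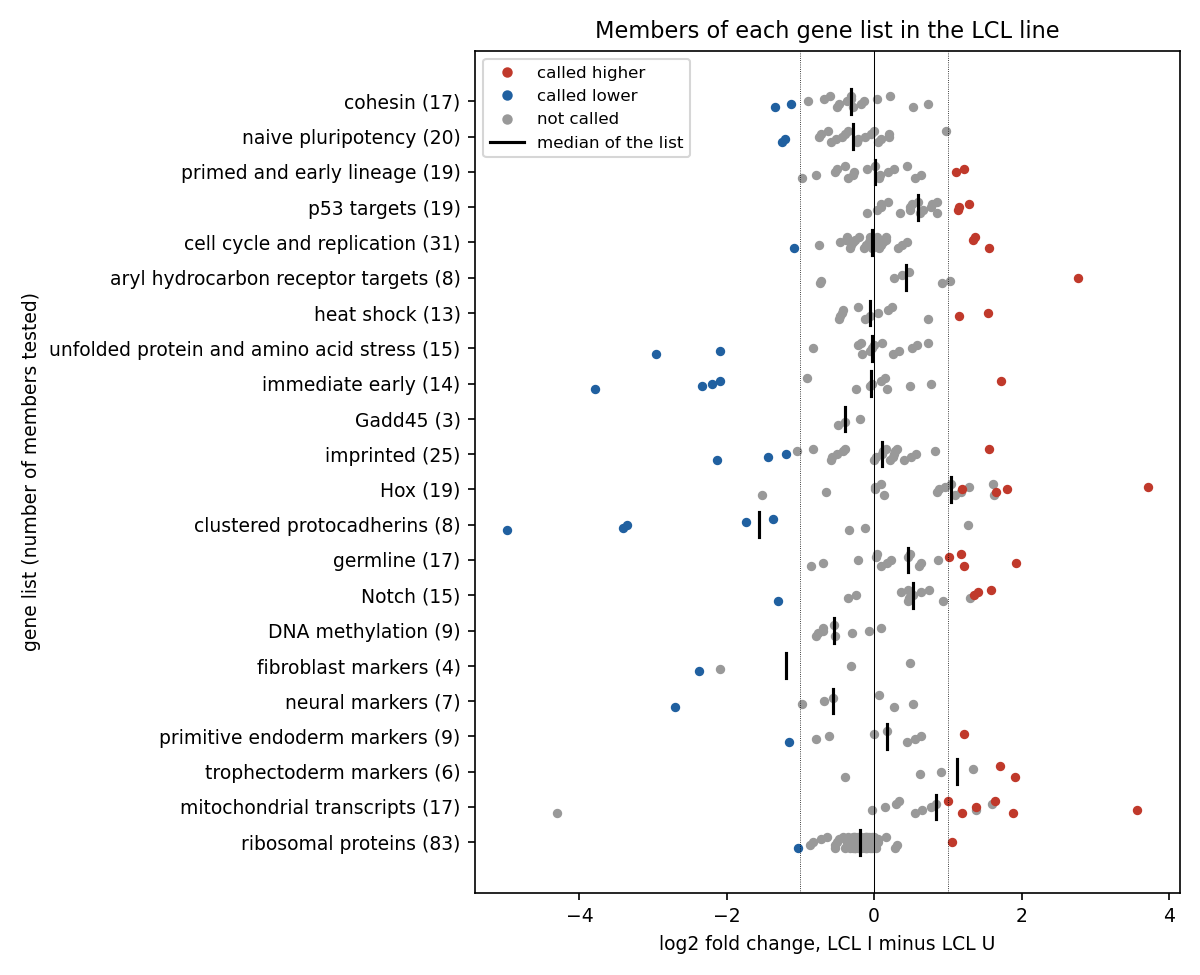
Log2 fold change of I against U on the x axis for each tested member of the gene lists with at least 3 tested members, by list on the y axis with the number tested. Red and blue points were called higher and lower, grey points were not called, black bars are list medians, and dotted lines mark 1 and -1. The p53 targets lie almost all to the right of 0 with a median of 0.60, and the Hox genes have a median of 1.04.

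Gene clusters at which CTCF is known to set boundaries were described in the same way. Of 19 tested Hox genes, which pattern the body axis, 4 were called higher and none lower, with a median of 1.04 and 17 above 0, beside 4.25% of all genes called higher and 7809 of 15274 above 0. Hoxb13 rose from 107 and 118 in U to 320 and 397 in I (log2 fold change 1.66). Hoxd9 was at 17.1 and 16.7 in U and at 73.4 and 51.8 in I, and its call ended without replicate 1 of I (log2 fold change 1.56, adjusted p = 0.0181). Hoxc9 was at 0 and 5.56 in U and at 28.5 and 37.2 in I, and its call ended without replicate 1 of U (log2 fold change 2.36, adjusted p = 0.0701), replicate 1 of I (0.0179) or replicate 2 of I (0.0354).

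Of 57 clustered protocadherin genes, whose promoters are chosen through CTCF loops in neurons, 8 were expressed enough to be tested. Of these, 5 were called lower, beside 5.34% of all genes, and the median was -1.56. Pcdhga11 was at 44.5 and 46.3 in U and at 1.16 and 0 in I, and Pcdhga12 was at 157 and 146 in U and at 50.7 and 65.5 in I. The transcripts of this cluster share their 3′ exons, so reads may be split or lost between its genes and the values are uncertain. Without replicate 1 of U the calls of Pcdhga12 (adjusted p = 0.0160), Pcdhgb7 (0.130), Pcdhga2 (0.0347) and Pcdhga10 (0.0216) ended. Without replicate 1 of I those of Pcdhga12 (0.0149), Pcdhgb7 (0.0164) and Pcdhga2 (0.0175) ended, without replicate 2 of I those of Pcdhgb7 (0.0416) and Pcdhga10 (0.0303), and without replicate 2 of U those of Pcdhga2 (0.0249) and Pcdhga10 (0.0232). That of Pcdhga11 held.

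Of 25 tested imprinted genes, 1 was called higher, Cdkn1c, and 3 lower, beside 4.25% and 5.34% of all genes. Peg10, a retrotransposon-derived gene of the placenta, fell from 1292 and 1096 to 489 and 393 (log2 fold change -1.44). Its neighbour Sgce, epsilon-sarcoglycan, whose start lies within 100 bases of it on the opposite strand, fell from 71.8 and 55.6 to 12.8 and 14.6 (log2 fold change -2.13). Ddc, aromatic amino acid decarboxylase, fell from 1647 and 1501 to 713 and 658 (log2 fold change -1.20). Igf2, a growth factor whose imprinting needs CTCF at a nearby insulator, was at 181 and 171 in U and at 108 and 90.6 in I (log2 fold change -0.83, adjusted p = 6.84e-04), under the fold threshold.

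Of 17 tested germline genes, 4 were called higher and none lower, with a median of 0.46, beside 4.25% of all genes called higher. Tex101, a surface protein of germ cells, rose from 83.2 and 71.0 to 285 and 303 (log2 fold change 1.92). Mael, a factor of piRNA defence, rose from 298 and 366 to 847 and 699 (1.22). Stra8, the gatekeeper of meiosis, was at 2702 and 2251 in U and at 4953 and 5054 in I (1.02), and without replicate 2 of U its log2 fold change was 0.89, under the fold threshold. Tdrd1, a Tudor protein of the piRNA pathway, was at 114 and 90.8 in U and at 241 and 222 in I, a call that ended without replicate 2 of U (log2 fold change 1.02, adjusted p = 0.0108).

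Of 15 tested Notch genes, 3 were called higher and 1 lower, beside 4.25% and 5.34% of all genes, with a median of 0.53. Hey1, a target of the pathway, rose from 30.8 and 59.9 to 147 and 118 (log2 fold change 1.59). Notch4, a receptor, fell from 455 and 419 to 203 and 154 (-1.30). The feedback inhibitor Nrarp was at 52.5 and 128 in U and at 223 and 201 in I, and its call ended without replicate 1 of U (log2 fold change 0.72, adjusted p = 0.0184). Lfng, a modifier of the receptor, was at 26.2 and 18.5 in U and at 59.4 and 61.5 in I, and its call ended without replicate 2 of U (adjusted p = 0.0225), replicate 1 of I (0.0117) or replicate 2 of I (0.0155).

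Of 17 tested cohesin genes, 2 were called lower and 13 lay below 0, with a median of -0.32. Over all genes tested, 5.34% were called lower, 7465 of 15274 lay below 0 and the median was 0.01. Smc1b, the meiotic SMC1, was at 673 and 505 in U and at 242 and 291 in I, and its log2 fold change was -0.92 without replicate 1 of U and -0.999 without replicate 1 of I, both under the fold threshold. Hdac8, the deacetylase that recycles SMC3, was at 169 and 167 in U and at 87.9 and 48.5 in I, a call that ended without replicate 2 of I (log2 fold change -0.93, adjusted p = 0.0151). None of 9 genes of DNA methylation was called, 8 lay below 0, and the median was -0.55. Dnmt3a, a de novo methyltransferase, was at 1335 and 1261 in U and at 754 and 749 in I (log2 fold change -0.79, adjusted p = 6.53e-06).

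Mitochondrial transcripts took 1.21% and 1.5% of the normalised counts in U and 2.18% and 2.24% in I. They took 1.99% and 1.36% in D, and 0.932% and 1.22% in ID, whose cells also had IAA. Of 17 tested, 6 were called higher and none lower, beside 4.25% of all genes called higher. Of the 6, 5 were tRNA genes, which poly(A) selection recovers poorly, and the other was the ribosomal RNA mt-Rnr2. The calls of mt-Tm (adjusted p = 0.0152) and mt-Tl1 (0.0123) ended without replicate 1 of U, that of mt-Tw without replicate 2 of U (0.0244) or either I library (0.0150 and 0.0145), and that of mt-Tt without replicate 2 of I (0.0510) or replicate 1 of U (0.0432). Genes with Rpl or Rps symbols, pseudogenes included, took 5.34% and 5.74% in U and 5.08% and 5.26% in I. Of 83 tested ribosomal protein genes 1 was called in each direction, Rpl10l higher and Rpl36 lower, and a median of -0.19. Without replicate 1 of I or replicate 2 of U, Rpl36 was under the fold threshold, at -0.92 and -0.84. The part of the mitochondrial share in the other results was not tested.

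The depletion genes of the other lines were followed in LCL. In the CTCF and CTCFL lines, 336 genes were called higher in both and 688 lower, where 5.0% and 3.69% of all genes tested were called higher in each. In LCL, whose libraries did not serve in that choice, 277 and 640 of these passed the filter on low values. Of the 640, 439 were called lower (68.6%) beside 5.34% of all genes, none was called higher, 638 had the same sign, and the median log2 fold change was -1.56. Of the 277, 146 were called higher (52.7%) beside 4.25%, none was called lower, 270 had the same sign, and the median was 1.33.

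A score per library averages the log2 difference from the U mean over these genes, signed by their direction in the other lines. It was 1.61 and 1.62 in the I libraries, 0.03 and 0.03 in D, 1.10 and 1.08 in ID, and -0.05 and 0.05 in U. The U values are equal and opposite by construction, but their size is the spread between the U libraries. The strongest of these genes by the other lines included Tmtc2, a mannosyltransferase of 386.8 kb, at 20.5 and 32.1 in LCL U and 3.49 and 1.62 in LCL I. Kcnt2, a sodium-activated potassium channel of 365.9 kb, was at 34.2 and 22.8 in U and at 1.75 and 0 in I. The calls of Kcnt2 (adjusted p = 0.0142), Nkd2 (0.0116) and Elavl4 (0.0109) ended without replicate 1 of U, those of Tmtc2 (0.0137) and Elavl4 (0.0292) without replicate 2 of U, and that of Elavl4 also without replicate 2 of I (0.0247).

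Of the 5 strongest gains in the other lines, Bex6, Phf24 and AL591207.3 were too low to be tested in LCL. Ccdc153 was at 5.70 and 4.94 in U and at 25.6 and 18.6 in I (log2 fold change 1.86, adjusted p = 0.0614). The predicted gene Gm37933 rose from 4.56 and 3.09 to 68.1 and 43.7.

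**Figure D5:**
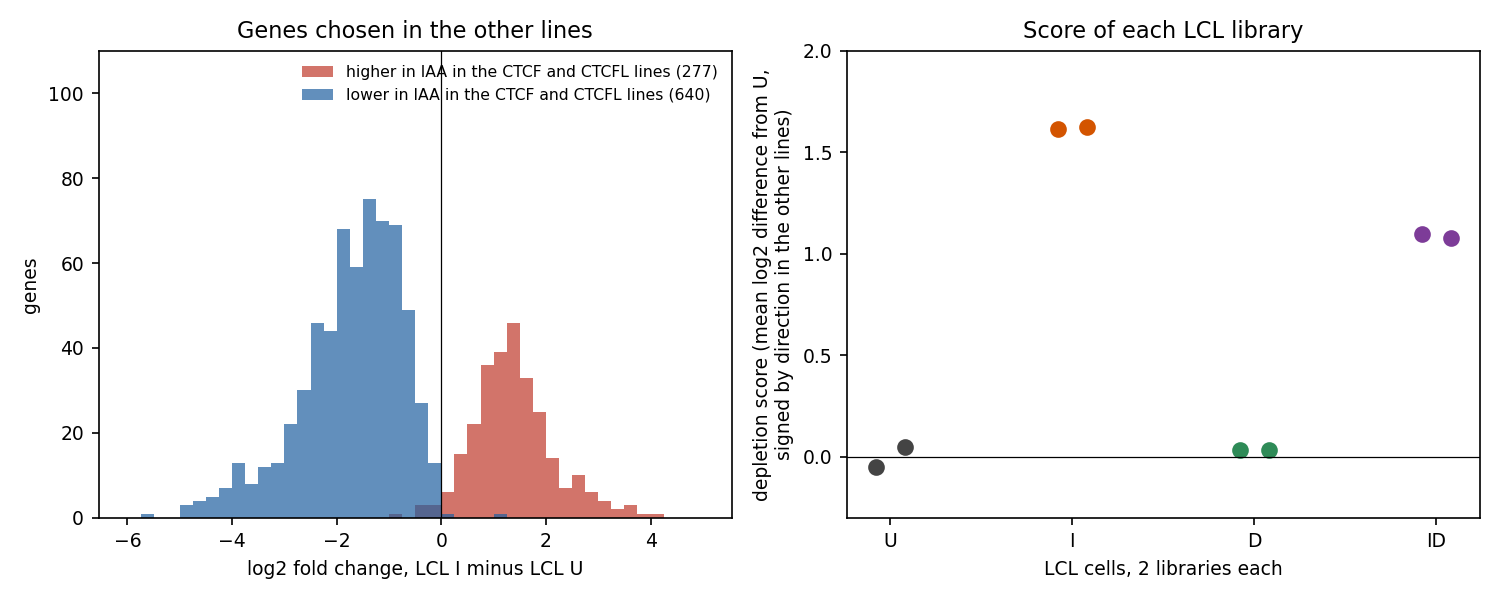
Left, number of genes by log2 fold change of LCL I against U, for genes called higher (red, 277) and lower (blue, 640) in both the CTCF and the CTCFL line. Right, the depletion score of each of the 8 LCL libraries, where the I libraries stand at 1.61 and 1.62 and the D libraries at 0.03.

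The IAA response of LCL was set against the mean response of the CTCF, CTCFL and CLC lines with an interaction contrast. Of 16335 genes tested, 189 differed (1.16%), with LCL above the other lines in 69 (0.422%) and below in 120 (0.735%). Without replicate 2 of I, 123 differed. Against 1 line alone, 300 genes differed from the CTCF line (1.84%), 474 from CTCFL (2.9%) and 179 from CLC (1.1%). Each line is a clone of its own, and line and clone cannot be told apart. The column names of the LCL and CLC libraries also carry the tag 2i, which those of the CTCF and CTCFL lines lack. What the tag marks is not stated, so a set of libraries cannot be told apart from the line either. LCL stood apart at an adjusted p under 0.01 from each of the other lines taken singly in 10 of the 69 and 24 of the 120. In LCL I against U itself, 36 of the 69 and 55 of the 120 were called.

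Below the other lines, Trh, the precursor of thyrotropin-releasing hormone, fell from 1662 and 1699 in U to 322 and 366 in I, a log2 fold change of -2.29 against 0.24 in the CTCF line, -0.19 in CTCFL and -1.22 in CLC. The difference of -1.90 had a standard error of 0.17 (adjusted p = 1.42e-08 from limma), and Trh was also low in D, at 412 and 365. Mcam, an adhesion molecule, was at 1106 and 1016 in U and at 524 and 520 in I (-1.02), against -0.02, 0.25 and 0.06 in the CTCF, CTCFL and CLC lines. Without replicate 1 of U, the LCL value of Mcam was -0.96, under the fold threshold. For Igf2 the log2 fold change was -0.83 in LCL, against 1.08, 0.13 and 0.87. Its mean U level was 2515 in the CTCF line, 1199 in CTCFL and 197 in CLC, against 176 in LCL. By this test, Myc, Peg10, Egr1, Itga9, Dennd6b, Mrpl23, Mki67, Acta2, Notch4 and Gadd45g, described above, were also below the mean of the other lines. Of these, Dennd6b fell in each other line too, by log2 fold changes of -3.72 in CTCF, -2.96 in CTCFL and -2.88 in CLC. So did Mrpl23 (-2.45, -1.91 and -2.91), and both genes had under 10 normalised counts in LCL I. Foxi3, Vnn1 and Tdrd1 were above it. Egr1 fell further in CLC (log2 fold change -2.68) than in LCL (-2.10), against -0.04 in the CTCF line and -0.10 in CTCFL. The log2 fold change of Itga9 was -5.53 in LCL, -3.04 in the CTCF line, -1.56 in CTCFL and -5.43 in CLC. That of Peg10 was -1.44 in LCL, 0.75 in the CTCF line, 0.24 in CTCFL and -0.28 in CLC. Myc had -2.33 in LCL, 1.34 in the CTCF line, 0.52 in CTCFL and -2.09 in CLC (interaction -2.26, adjusted p = 5.01e-06).

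Above the other lines, Pycr1, which makes proline, was at 1365 and 1416 in U and at 2116 and 1996 in I (log2 fold change 0.56), against -0.85, -0.25 and -0.35 in the CTCF, CTCFL and CLC lines. Pck2, the mitochondrial PEP carboxykinase, was at 2691 and 3125 in U and at 4203 and 3889 in I (0.48), against -1.32, -0.17 and -0.16. Epha4, a receptor of ephrins, was at 9525 and 9142 in U and at 8254 and 8483 in I (-0.16), against -1.49, -1.71 and -0.87.

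Of 2 further genes, Steap1, a metalloreductase, was at 38.8 and 59.3 in U and at 25 and 5.66 in I, and its call (log2 fold change -1.89) ended without replicate 2 of I (-0.91, adjusted p = 0.0636) or replicate 2 of U (-1.59, adjusted p = 0.0339). Prss50, a testis serine protease, was at 20.5 and 17.9 in U and at 25 and 10.5 in I (log2 fold change -0.22), with overlapping groups, and at 99.9 and 107 in D.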

How the data were processed

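Poly(A) RNA was sequenced as stranded libraries. Per the labels and the study's methods, STAR was the aligner the authors used, on GRCm38 (mm10), and the submitters' processing notes name Trim Galore 0.4.4, Bowtie2, SAMtools 1.3, HTSeq and deepTools. The authors deposited a normalised signal, gene counts divided by a size factor per library, for 38 RNA libraries. Whole reads could be recovered from it for 36 libraries, with 100% of LCL values whole within 0.1. Strand settings of the counting are not given in the sources used here. FLAG peaks were deposited per replicate with fold enrichment, a ratio, and -log10 q from the authors' MACS calls, for which the study's methods and the deposited files differ on the version, and sites overlapped in both replicates were used.

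limma 3.58.1 (R 4.3.3) was fitted to log2(value + 1) of the 8 LCL libraries, with a trend, for genes with a mean of at least 10. edgeR 4.0.16 and DESeq2 1.42.0 on recovered reads were alternatives. GENCODE vM21 gave positions for 48010 genes by symbol and 197 by synonym. Named genes were the 12 highest and 12 lowest called genes with a mean of at least 50 and no overlap of U and I, without predicted Gm and Rik models, called list members (at most 5 a list) and the 5 most different genes in each direction of the interaction and depletion lists. Members and lists were chosen with earlier results of these data known. Some genes that this rule names are not reported here.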

Additional observations from a re-analysis of the deposited data

Results flagged for a closer look

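The IAA response of LCL differed from the mean of the 3 other lines in 189 genes by the interaction test. The interaction, LCL minus the mean of the other lines on the log2 scale, was 1.05 for Pycr1, 1.08 for Tgm2, 1.03 for Pck2 and 1.20 for Epha4. It was -1.90 for Trh, -1.12 for Mcam, -1.52 for Igf2, -1.05 for Myh13 and -1.17 for Cgnl1. Line, clone and the set of libraries cannot be told apart in these differences.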

How the results depend on the processing

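With no fold threshold, 4340 genes passed in LCL I against U, 2160 higher and 2180 lower. Leaving out 1 library gave 1131 to 1445 called genes, 483 to 669 higher and 648 to 843 lower, and 70.9% to 82.0% of the called genes were called again in the same direction. Of the called genes, edgeR called 97.5% and DESeq2 96.2% in the same direction. The interaction gave 300 genes against the CTCF line alone, 474 against CTCFL alone, and 123 to 226 without 1 library. The depletion scores of the 2 I libraries were 1.45 and 1.44 with a pseudocount of 5, 1.59 and 1.64 with TMM factors, and 1.80 and 1.79 with the genes of 3 lines. Promoter sites were held by 18.9% of genes called higher and 29.9% of those called lower within 1 kb, 44.2% and 50.8% with CTCF D sites, 42% and 48.7% with replicate 1 alone, and 27.5% and 28.3% at the 5′ end. For 3 genes that were not called, the sign turned without 1 library, over ranges from -0.24 to 0.0069 for Ctcf (above 0 without replicate 1 of U), from -0.41 to 0.10 for Ctcfl (above 0 without replicate 2 of I, and 0.05 without replicate 1 of U) and from -0.81 to 0.37 for Prss50 (above 0 without replicate 2 of I). The cause was not tested.

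Deviations of same-numbered libraries had correlations between -0.016 and 0.074, so little shared deviation was seen. The labels do not say whether a number marks a shared culture or day, and this was not tested. With the replicate block, 1497 genes were called, 1462 of them among the 1464, and the interaction gave 161. With 2 libraries a group, a call without 1 library assumes that the lone one varies like the other groups. Counts under about 10 limit what can be seen for weakly expressed genes.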
